A study of Mus musculus with 8 samples.

Results

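The EGF-like ligands Areg, Ereg, Btc, Hbegf, Tgfa and Nrg1, the receptors Egfr, Erbb2 and Erbb3 and the sheddase Adam17 were followed in mouse granulosa cells of 2 genotypes around ovulation. These 10 genes were chosen by symbol as the ligands, receptors and releasing protease of a single signalling system, and all 10 were found among the 51886 gene symbols of the table. All 10 passed the filter on low values, at least 1 TPM (a transcript's share of all transcripts, scaled for its length and to a fixed total) in at least 4 of the 8 libraries, as did 14472 genes in all. The libraries came from peri-ovulatory granulosa cells of the PGR-A KO strain, 4 from knockout and 4 from WT animals. The gene Pgr encodes the progesterone receptor isoforms PGR-A and PGR-B, and the strain is named for the loss of PGR-A. Mice of both genotypes were 21 to 27 days old, were given 5 IU eCG followed after 46 h by 5 IU hCG, and were culled 8 h after hCG. Each library pooled the cells of 2 to 3 mice, so the spread between libraries is one between pools. The labels describe no allele, and no limit of the knockout to a cell type.

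EGF-like ligands are made as membrane-bound precursors, and ADAM17 is the protease that cuts many of them free. The released ligands bind EGFR, which pairs with itself or with ERBB2, whereas neuregulins such as NRG1 bind ERBB3 or ERBB4. In the ovulating follicle the LH surge, for which hCG stands in here, raises cAMP in mural granulosa cells. That induces AREG, EREG and BTC, which carry the signal on to the cumulus cells and the oocyte, and their transcripts are known to peak early after the surge and then decline.

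The promoters of Areg and Btc are shown because both genes are known to be induced through cAMP. Both also had their 4 highest values in the same libraries. That of Tgfa is shown because its level hardly varied. The 3 promoters are the 250 bases before the RefSeq transcript start, on the GRCm38.p6 build (mm10), 5′ to 3′ in the direction of transcription. Capitals mark matches to TGACG, the core of the cAMP response element, on either strand, including the whole element TGACGTCA.
Areg, chr5:91139349-91139598, plus strand: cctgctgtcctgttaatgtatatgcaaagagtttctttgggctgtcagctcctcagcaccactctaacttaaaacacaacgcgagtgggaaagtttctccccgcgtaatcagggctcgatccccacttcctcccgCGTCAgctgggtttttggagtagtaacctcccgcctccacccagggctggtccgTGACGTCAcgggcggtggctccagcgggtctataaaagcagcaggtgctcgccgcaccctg
Btc, chr5:91402995-91403244, minus strand: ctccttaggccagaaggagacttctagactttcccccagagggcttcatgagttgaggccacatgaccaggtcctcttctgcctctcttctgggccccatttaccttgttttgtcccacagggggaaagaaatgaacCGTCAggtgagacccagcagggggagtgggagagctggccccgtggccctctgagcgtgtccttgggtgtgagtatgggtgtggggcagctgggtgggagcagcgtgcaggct
Tgfa, chr6:86194972-86195221, plus strand: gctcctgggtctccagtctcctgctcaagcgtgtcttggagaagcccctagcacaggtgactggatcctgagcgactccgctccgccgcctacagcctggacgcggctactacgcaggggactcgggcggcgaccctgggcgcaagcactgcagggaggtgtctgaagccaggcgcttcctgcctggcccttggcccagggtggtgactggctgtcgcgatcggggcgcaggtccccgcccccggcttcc

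Areg held the full palindrome TGACGTCA, starting 61 bases before its start site, and a further TGACG on the opposite strand 115 bases before it. Of the 32851 RefSeq promoter windows of this length, 1.55% held TGACGTCA and 17.8% held TGACG. RefSeq sequence was matched for 6 of the 10 members. Among these 6, TGACG was found in Areg, Btc (113 bases before the start) and Erbb2, and TGACGTCA only in Areg. The GC box GGGCGG, a site of SP1, was found in Areg, Tgfa, Egfr and Adam17, and in 32.7% of all windows. AGAACA, the half-site shared by the progesterone and glucocorticoid receptors, was in 0 of the 6 and in 16.1% of all windows. Both strands were searched, and overlapping matches were counted. A match describes letters in the window, and nothing here measured binding.

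Areg, Ereg and Btc lie in a single cluster on chromosome 5 with Epgn, the gene of the related ligand epigen. In GENCODE M21 on mm10 the order is Epgn (91027464 to 91035215, plus strand), Ereg (91074622 to 91093646, plus), Areg (91139599 to 91148432, plus) and Btc (91357261 to 91402994, minus). These 4 were the only protein-coding genes in the 376 kb from the first to the last. The other members lie apart, with Tgfa on chromosome 6 (86195223 to 86275719), Nrg1 on 8 (31814551 to 32884029), Hbegf on 18 (36504927 to 36515805), Egfr on 11 (16752203 to 16918158), Erbb2 on 11 (98412470 to 98437716), Erbb3 on 10 (128567523 to 128589652) and Adam17 on 12 (21323509 to 21373632). Exons of Ereg, Tgfa, Nrg1, Erbb2 and Adam17 overlap those of a gene on the opposite strand (Gm19610, Gm43917, Gm26578, Mien1 and Iah1). The libraries were made with a stranded kit. Whether the counting used strand is not given in the sources used here.

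Over all genes the genotypes differed little against the spread between pools. With limma, 2 of the 14472 genes tested passed an adjusted p of 0.05 (Benjamini-Hochberg), which is 0.0138% of them, and 913 (6.31%) had an unadjusted p under 0.05. Pgr itself stood at 3.21, 3.52, 2.01 and 3.08 TPM in PGR-A KO replicates 1 to 4 and at 1.56, 0.878, 1.41 and 0.756 TPM in WT, a sum over isoforms that does not check the labels. The libraries correlated at 0.970 to 0.991 with each other on the log2 scale. PGR-A KO replicate 3 and WT replicate 1 stand apart from the rest of their groups for many genes. For Btc, Ereg, Epgn and Egfr the fits without each of them are given as well. The granulosa markers Inha, with 2994 to 4645 TPM, and Foxl2, with 34.9 to 60.4 TPM, were high in every library. Of the 7 granulosa markers listed, 6 had lower means in PGR-A KO and 1 a higher mean, and 0 passed the test between genotypes. Oocyte markers were present too, with Gdf9 at 132 to 316 TPM. In pooled cells, fewer cells of a type and less RNA per cell cannot be told apart.

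None of the 10 members passed the test between genotypes. The lowest limma adjusted p was 0.752, for Btc, and the share called over all genes was 0.0138%. An unadjusted p under 0.05 was found for 2 of 10 members, against 6.31% of all genes. These were Btc, higher in PGR-A KO as were 0.974% of all genes at that p, and Hbegf, lower as were 5.33%. The mean on the log2 scale was higher in PGR-A KO for 6 members and lower for 4, and 42.6% of all genes tested had a higher mean there. The median log2 change was 0.024, against -0.023 over all genes tested. In all 10 the groups overlapped, whereas they did not in 3.42% of all genes.

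**Figure D1:**
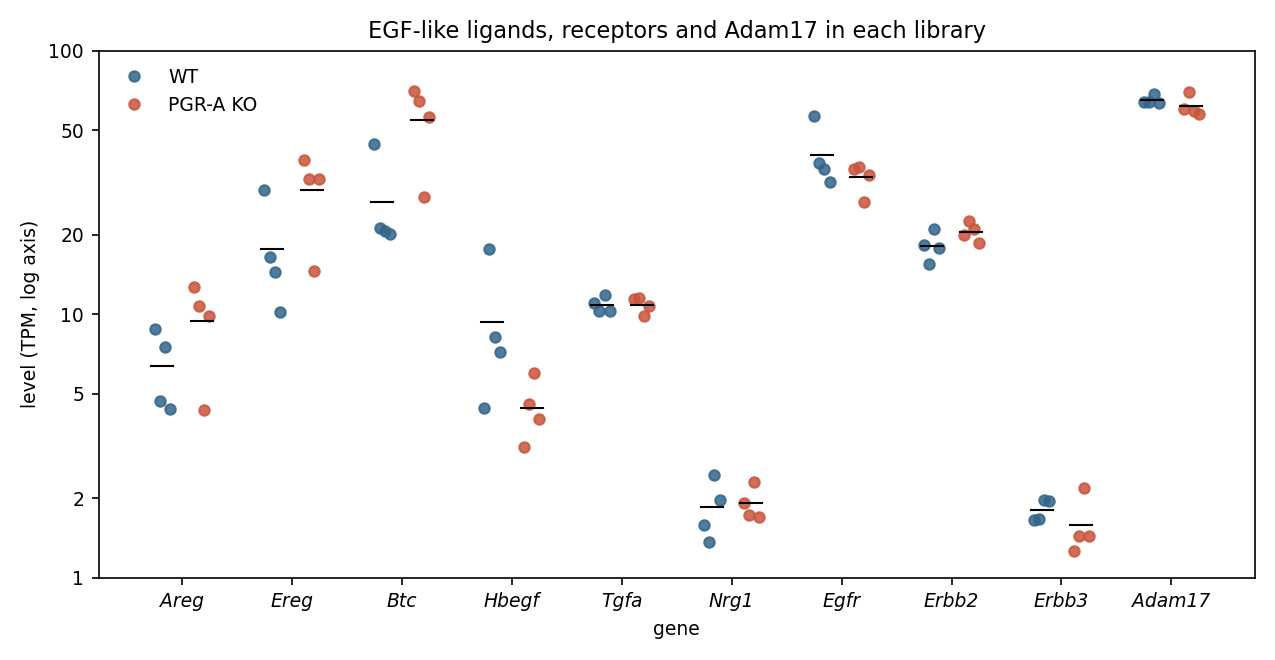
Level of each member in TPM (log axis) in the 4 WT (blue) and 4 PGR-A KO (red) libraries, with a black line at each group mean. Adam17 at 57.8 to 69.9 TPM and Tgfa at 9.85 to 11.8 TPM varied little, while Areg, Ereg, Btc and Hbegf spread widely within each genotype.

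Btc, the gene of betacellulin, a ligand of EGFR and ERBB4, was the most abundant ligand transcript in both genotypes. In replicates 1 to 4 of PGR-A KO it stood at 70.5, 64.4, 27.8 and 56.2 TPM, and in those of WT at 44.2, 21.3, 20.8 and 20.2 TPM. 3 of the 4 knockout libraries lay above every WT library, and PGR-A KO replicate 3 lay below WT replicate 1. WT averaged 26.6 ± 11.7 TPM and PGR-A KO 54.7 ± 18.9 TPM (SD, n = 4 each), a ratio of 2.06. Btc had a log2 change of 1.01 (SE 0.33, 95% interval 0.27 to 1.75), an exact permutation p of 0.0571 and a limma adjusted p of 0.752. The log2 change of Btc was 1.30 without PGR-A KO replicate 3 and 1.28 without WT replicate 1, and with either left out it did not pass.

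Ereg, the gene of epiregulin, which binds EGFR and ERBB4, was lower than Btc in every library. Ereg stood at 38.7, 32.7, 14.6 and 32.5 TPM in PGR-A KO and at 29.7, 16.5, 14.5 and 10.2 TPM in WT. Again PGR-A KO replicate 3 was far below the other knockout libraries, and WT replicate 1 far above the other WT libraries. The means were 29.6 ± 10.4 and 17.7 ± 8.39 TPM (SD, n = 4 each), a ratio of 1.67. The log2 change of Ereg was 0.72 (SE 0.35, 95% interval -0.069 to 1.52, exact permutation p = 0.143, limma adjusted p = 0.795). Without PGR-A KO replicate 3 it was 1.02 and without WT replicate 1 it was 0.995, and Ereg passed in neither fit.

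Areg, the gene of amphiregulin, a ligand of EGFR alone, was the lowest of the 3 ligands known to be induced by LH. Its levels were 12.7, 10.8, 4.32 and 9.85 TPM in PGR-A KO and 8.78, 4.70, 7.48 and 4.39 TPM in WT. PGR-A KO replicate 3 held the lowest value of all 8 libraries, and the other 3 knockout libraries the highest 3. The means were 9.40 ± 3.58 and 6.34 ± 2.14 TPM (SD, n = 4 each), with a log2 change of 0.47 (SE 0.31, 95% interval -0.23 to 1.16, exact permutation p = 0.229, limma adjusted p = 0.837). Leaving out PGR-A KO replicate 1 gave 0.31 for Areg and leaving out PGR-A KO replicate 3 gave 0.76, and it did not pass in either fit.

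Epgn, the remaining ligand gene of the chromosome 5 cluster, was not a member but is the most abundant of the other EGF-like ligands. Epgn stood at 29.5, 21.2, 12.5 and 24.9 TPM in PGR-A KO and at 21.7, 13.4, 10.4 and 11.1 TPM in WT. As with Btc and Ereg, its lowest knockout library was PGR-A KO replicate 3. Its log2 change was 0.60 (SE 0.28, exact permutation p = 0.143, limma adjusted p = 0.789). Without PGR-A KO replicate 3 it was 0.84 and without WT replicate 1 it was 0.81, and Epgn passed in neither fit.

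The 4 highest values of each of Areg, Ereg, Btc and Epgn came from the same 4 libraries, WT replicate 1 and PGR-A KO replicates 1, 2 and 4. Of all 14472 genes tested, 12.6% had their 4 highest values in these libraries and 10.5% their 4 lowest. Among the 10 members, 3 (Areg, Ereg and Btc) had the highest and 2 (Hbegf and Erbb3) the lowest values there. These libraries are named for their values, so this is a description with no test. Leaving out WT replicate 1 and PGR-A KO replicate 3, picked for lying with the other genotype, the log2 changes were 0.91 for Areg, 1.29 for Ereg and 1.57 for Btc, with limma adjusted p of 0.0288, 0.00914 and 0.00172. In that fit of 6 libraries Hbegf was at -1.20 (limma adjusted p = 0.0499), so 4 members passed, as did 1131 genes in all. Since the 2 libraries were left out for their values, these calls do not measure an effect of genotype. All 8 libraries were also weighted by limma's array weights, a fit likewise added after the data were seen. The log2 changes were then 0.79 for Areg, 1.23 for Ereg, 1.42 for Btc (limma adjusted p = 0.0553) and -0.92 for Hbegf (limma adjusted p = 0.0738). They were 1.00 for Epgn, 0.78 for Cblb, -0.55 for Fos, -0.044 for Egfr and 0.11 for Erbb2. None of these passed.

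**Figure D2:**
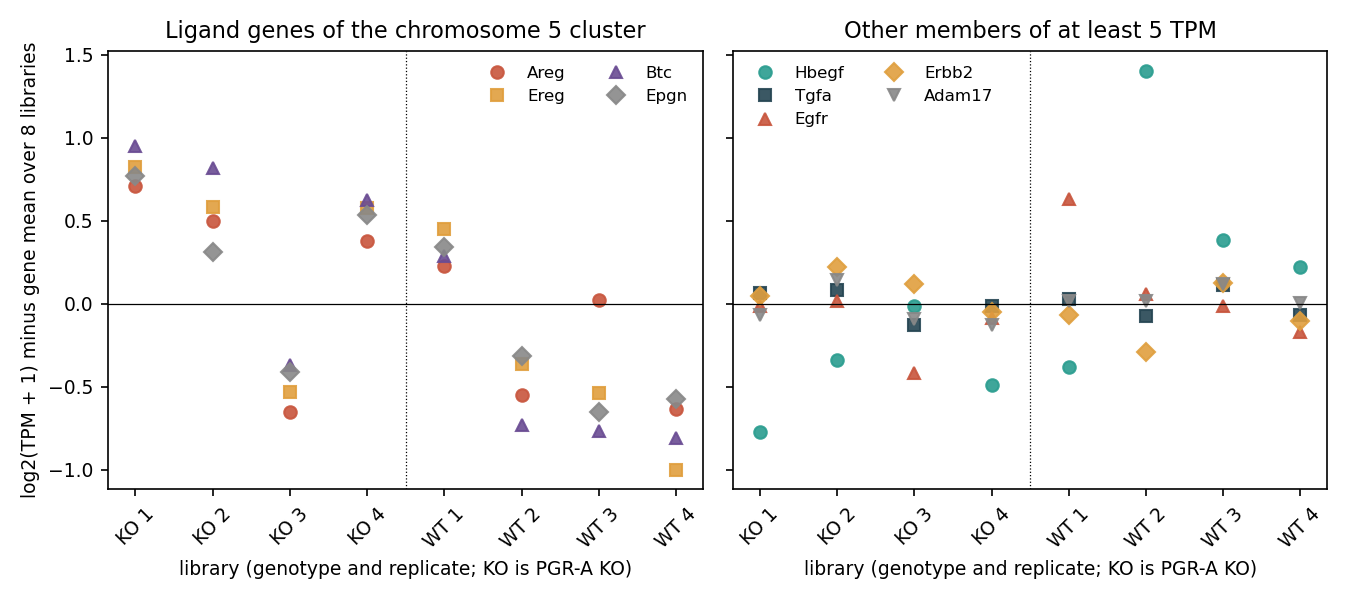
Deviation of log2(TPM + 1) from each gene's mean over the 8 libraries, with knockout libraries left and WT libraries right of the dotted line. Areg, Ereg, Btc and Epgn (left panel) were above 0 in WT replicate 1 and in PGR-A KO replicates 1, 2 and 4. Areg was also just above 0 in WT replicate 3. Hbegf (right panel) was highest in WT replicate 2.

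These ligands had their 4 highest values in the same libraries, but the order of all 8 libraries and the proportions of the ligands differed. The lowest library was PGR-A KO replicate 3 for Areg and WT replicate 4 for Ereg and Btc. Ereg exceeded Areg by a factor of 3.03 to 3.37 in PGR-A KO and of 1.93 to 3.504 in WT. Btc exceeded Areg by a factor of 5.57 to 6.42 in PGR-A KO and of 2.78 to 5.03 in WT, and here the genotypes did not overlap. WT replicate 3 gave the lowest value of both ratios. The ratios were formed after the levels were seen and were not tested.

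The genes whose pattern over the 8 libraries was nearest to these ligands were found by the root mean square difference of mean-centred log2(TPM + 1), among 10310 genes of at least 5 TPM. For Areg they were Adamts4, Robo2 and Adgrf5, with differences of 0.15, 0.16 and 0.17, against a root mean square deviation of Areg itself of 0.51. For Ereg they were Cd34, Lrrn3 and Chst15 (0.12, 0.15 and 0.18, own deviation 0.64), and for Btc they were Arl4d, Fbxl22 and Ereg (0.20, 0.20 and 0.21, own deviation 0.70). Adamts4, a protease that cuts versican, ranged from 5.84 TPM in PGR-A KO replicate 3 to 15.9 TPM in PGR-A KO replicate 2. Cd34, a sialomucin known from blood stem cells and endothelium, ranged from 188 TPM in WT replicate 4 to 566 TPM in PGR-A KO replicate 1. The 6 endothelial markers together summed to 15.5 to 27.5 TPM in PGR-A KO and 20.1 to 40.9 TPM in WT. Which cells held the Cd34 transcripts was not tested. Ereg thus ranked 3rd nearest to Btc, while Areg ranked 56th from each of Ereg and Btc. Counted from Areg, Ereg ranked 118th and Btc 531st of 10310 genes, with differences of 0.28 and 0.35. With 8 libraries, and 12.6% of all genes tested having their 4 highest values in the same libraries as these ligands, closeness here says little about any pair.

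Hbegf, the gene of heparin-binding EGF-like growth factor, was the ligand with the opposite tendency. Its levels were 3.13, 4.57, 5.97 and 4.02 TPM in PGR-A KO and 4.41, 17.6, 8.18 and 7.21 TPM in WT. WT replicate 2 was far above the rest, and WT replicate 1 lay among the knockout libraries. The means were 4.42 ± 1.19 and 9.36 ± 5.75 TPM (SD, n = 4 each), a ratio of 2.12 between WT and PGR-A KO. The log2 change of Hbegf was -0.81 (SE 0.33, 95% interval -1.56 to -0.055, exact permutation p = 0.0857, limma adjusted p = 0.783). Without WT replicate 2 it was -0.48, and with a pseudocount of 5 it was -0.54.

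Macrophages and epithelia are known to make Hbegf as well, and their markers were present in all libraries. The 8 macrophage markers summed to 53.4 to 114 TPM in PGR-A KO and to 83.9 to 116 TPM in WT, and 7 of the 8 had lower means in the knockout. WT replicate 2, with the highest Hbegf, stood at 94.2 TPM in this sum, and PGR-A KO replicate 3 at 114 TPM. The 7 surface epithelium markers summed to 83.1 to 89.7 TPM in PGR-A KO and to 80.5 to 115 TPM in WT, with 7 of 7 lower in the mean. The sum of the 7 granulosa markers was highest in WT replicate 2, at 5982 TPM, against 3835 to 5499 TPM in the other libraries. Of that sum, 4645 TPM was Inha. Inha, Inhba, Fshr, Nr5a2 and Cyp19a1 were each highest in WT replicate 2. Amh was lowest there, at 147 TPM, and Foxl2 was highest in WT replicate 3. In none of these lists was a gene at 0 in every library. Their part in the Hbegf values was not tested.

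The other cell types differed between libraries as well. In replicates 1 to 4 the 9 oocyte markers summed to 820, 1103, 1352 and 757 TPM in PGR-A KO. In WT they summed to 815, 548, 1036 and 1005 TPM. All 9 were higher in the knockout mean, but markers of a single cell type can move together. Such counts of markers, here and above, are therefore not counts of separate results. The 6 theca markers summed to 488 to 1089 TPM in PGR-A KO and to 628 to 1120 TPM in WT, most of it Cyp11a1, which granulosa cells also make after hCG. Endothelial markers summed to 15.5 to 27.5 TPM in PGR-A KO and 20.1 to 40.9 TPM in WT, stromal fibroblast markers to 88.8 to 127 and 89.3 to 108 TPM, and erythroid markers to 2363 to 4137 and 1121 to 7416 TPM. No marker in the 8 lists passed the test between genotypes. PGR-A KO replicate 3, with the lowest Areg, had the highest oocyte sum and the lowest theca sum of the 8 libraries. Of that theca sum of 488 TPM, 373 TPM was Cyp11a1. Among the other theca markers, Cyp17a1 and Insl3 were lowest in this library, and Ptch1 and Gli1 highest. Aldh1a1, at 82.2 TPM, was exceeded only in WT replicate 2, at 212 TPM. The part of these cell types in the ligand values was not tested.

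Tgfa, the gene of transforming growth factor alpha, a ligand of EGFR, hardly varied. The lowest, in PGR-A KO replicate 3, was 9.85 TPM and the highest, in WT replicate 3, was 11.8 TPM, a factor of 1.20. The log2 change of Tgfa was 0.0025, and its 95% interval, -0.19 to 0.19, sets how large a difference these data allow. Nrg1, a neuregulin that binds ERBB3 and ERBB4, was low, at 1.71 to 2.31 TPM in PGR-A KO and 1.37 to 2.46 TPM in WT. Its log2 change was 0.045 (95% interval -0.28 to 0.37). The sign for Tgfa turned when any of PGR-A KO replicates 1 and 2 and WT replicates 2 and 4 was left out, and for Nrg1 without WT replicate 2 or PGR-A KO replicate 3.

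The makeup of the ligand transcripts differed between libraries along with these levels. The 6 ligands together summed to 138, 126, 64.8 and 115 TPM in PGR-A KO and to 99.7, 71.8, 65.2 and 54.3 TPM in WT. Btc made up 48.5% ± 3.90 of that sum in PGR-A KO and 35.8% ± 6.49 in WT (SD, n = 4 each), with ranges of 42.9% to 51.3% and 29.7% to 44.3%. Only WT replicate 1 reached into the knockout range. Ereg contributed 26.2% ± 2.66 and 23.5% ± 4.58, and Areg 8.24% ± 1.08 and 8.73% ± 2.06 (SD, n = 4 each). Hbegf contributed 4.65% ± 3.10 in PGR-A KO and 13.7% ± 8.28 in WT (SD, n = 4 each), with 24.6% in WT replicate 2. Shares add up to a whole and so are not independent, and they were not tested, since the ligands were chosen with earlier results known.

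**Figure D3:**
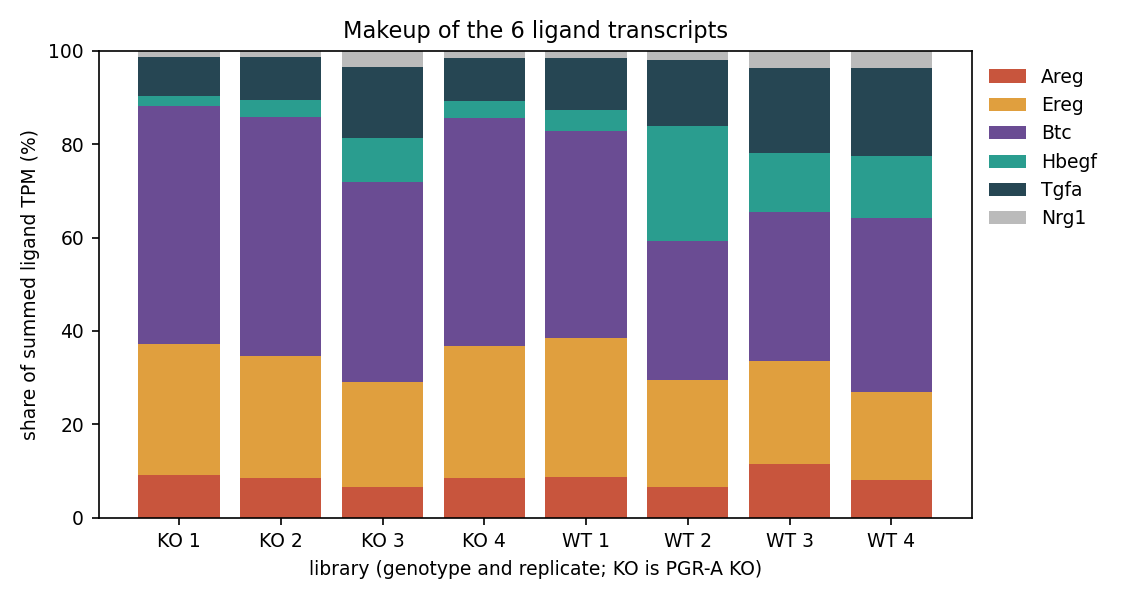
Share of each ligand in the summed TPM of the 6 ligands, as stacked bars that add to 100%, for each library. Btc was the largest share in all 8 libraries, and Hbegf reached 24.6% in WT replicate 2.

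Egfr, the receptor for most of these ligands, was the most abundant receptor transcript. It stood at 35.6, 36.3, 26.7 and 33.9 TPM in PGR-A KO and at 56.3, 37.6, 35.7 and 31.9 TPM in WT. WT replicate 1 was above all other libraries, and the remaining WT libraries lay within or close to the knockout range. The means were 33.1 ± 4.41 and 40.4 ± 10.9 TPM (SD, n = 4 each), with a log2 change of -0.25 (SE 0.17, 95% interval -0.64 to 0.13, exact permutation p = 0.343, limma adjusted p = 0.838). Without WT replicate 1 the log2 change of Egfr was -0.085, and without PGR-A KO replicate 3 it was -0.16.

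Erbb2, the gene of the receptor that binds no ligand of its own and serves as a partner, was at 18.6 to 22.6 TPM in PGR-A KO and 15.5 to 21.1 TPM in WT. Its log2 change was 0.17 (95% interval -0.062 to 0.40, exact permutation p = 0.171, limma adjusted p = 0.817), and it was 0.10 without WT replicate 2. Erbb3, the gene of a neuregulin receptor with little kinase activity, was at 1.26 to 2.19 TPM in PGR-A KO and 1.66 to 1.98 TPM in WT. 3 of the 4 knockout libraries lay below every WT library of Erbb3, and PGR-A KO replicate 3 lay above all of them. Erbb4, the remaining receptor of the family, was at 0.0746 to 0.403 TPM and did not pass the filter. Egfr made up 59.8% ± 4.38 of the summed Egfr, Erbb2 and Erbb3 in PGR-A KO and 66.2% ± 6.14 in WT (SD, n = 4 each).

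Adam17, the sheddase, was the member with the highest mean in both genotypes. It stood at 57.8 to 69.9 TPM in PGR-A KO and at 63.3 to 68.7 TPM in WT. 3 of the 4 knockout libraries lay below every WT library of Adam17, and PGR-A KO replicate 2 lay above them all. Its log2 change was -0.076 (SE 0.075, 95% interval -0.25 to 0.094, exact permutation p = 0.314, limma adjusted p = 0.904). The log2 change of Adam17 was -0.14 without PGR-A KO replicate 2, -0.046 without PGR-A KO replicate 4, -0.050 without WT replicate 3 and -0.048 with TMM scaling factors.

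**Figure D4:**
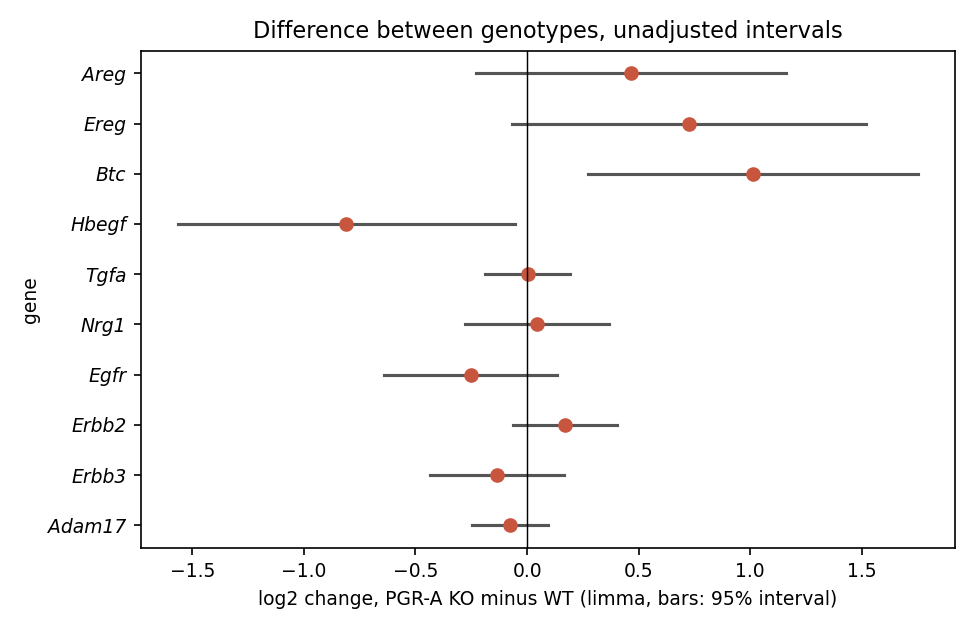
Log2 change between genotypes (PGR-A KO minus WT, on log2(TPM + 1)) for each member, with its unadjusted 95% interval from limma. The intervals of Btc (0.27 to 1.75) and Hbegf (-1.56 to -0.055) do not reach 0, but neither gene passed over all genes.

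Among all 10 members the order of mean levels in WT ran from Adam17 through Egfr, Btc, Erbb2, Ereg, Tgfa, Hbegf and Areg to Nrg1 and Erbb3. Adam17 was above Egfr, and Egfr above Btc, in 4 of 4 WT libraries. Erbb2 was above Ereg in 2 of 4, and Nrg1 above Erbb3 in 2 of 4, so those neighbours did not differ beyond their spread. In PGR-A KO the order was Adam17, Btc, Egfr, Ereg, Erbb2, Tgfa, Areg, Hbegf, Nrg1 and Erbb3. There Btc exceeded Egfr in 4 of 4 libraries, and Adam17 exceeded Btc in 3 of 4. TPM is scaled for length, so these levels can be set side by side. Of the genes tested, 84.2% had a lower mean over the 8 libraries than Adam17, 74.6% a lower mean than Btc, 32.9% a lower mean than Areg and 8.46% a lower mean than Erbb3.

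Of 69 other genes of the pathway, in 7 lists by role, 66 passed the filter and none passed the test between genotypes. Among them, 5 of the 66 had an unadjusted limma p under 0.05, against 6.31% of all genes. Means on the log2 scale were higher in PGR-A KO for 40 (60.6%) and lower for 26, against 42.6% higher over all genes tested, and the median log2 change was 0.047 against -0.023. The ligands Nrg2 and Nrg3 and the receptor Erbb4 did not pass the filter.

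Among the other sheddases and their regulators, 4 of 10 had higher and 6 lower means, and 0 passed. Adam10, the protease known to release EGF and betacellulin, was the most abundant at 99.4 ± 7.37 TPM in PGR-A KO and 99.7 ± 6.53 TPM in WT (SD, n = 4 each). Adam12, a related protease, was low and did not overlap between genotypes, with 1.44 to 1.83 TPM in PGR-A KO and 1.84 to 2.11 TPM in WT (limma adjusted p = 0.795). Rhbdf1, an inactive rhomboid that brings ADAM17 to the cell surface, was at 17.7 ± 1.99 and 20.5 ± 3.33 TPM (SD, n = 4 each).

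The adaptors and RAS-ERK cascade, which carry the signal from the receptor to the nucleus, numbered 17 genes. Of these, 10 means were higher and 7 lower, 0 passed, and the median log2 change was 0.013. Gab1, the gene of a docking protein, was at 13.6 ± 0.822 TPM in PGR-A KO and 15.1 ± 1.59 TPM in WT (SD, n = 4 each).

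Of 16 feedback inhibitors of EGFR and ERK signalling, 12 were higher (75%, against 42.6% of all genes) and 4 lower in the PGR-A KO mean, with 0 passing and a median log2 change of 0.056. Cblb, a ubiquitin ligase that promotes receptor turnover, stood at 31.0, 28.8, 17.0 and 30.6 TPM in PGR-A KO and at 23.7, 18.2, 15.7 and 15.6 TPM in WT. Its 4 highest values came from the same libraries as those of Areg, Ereg and Btc, and PGR-A KO replicate 3 lay among the other WT libraries (log2 change 0.51, limma adjusted p = 0.783). Errfi1, which blocks the EGFR kinase and is itself induced by it, was the most abundant at 142 ± 46.1 and 164 ± 58.7 TPM (SD, n = 4 each). Socs5, a suppressor of EGFR and cytokine signalling, was at 15.0 ± 1.68 and 12.8 ± 1.32 TPM.

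Of 12 genes known to respond to EGF in the ovulating follicle, 5 had higher and 7 lower means, 0 passed, and the median log2 change was -0.15. Phlda1, an early response gene of growth factors, had the lowest p among the other pathway genes. Phlda1 stood at 7.17, 6.83, 8.09 and 7.13 TPM in PGR-A KO and at 12.0, 13.0, 12.1 and 10.6 TPM in WT. All 4 knockout libraries lay below all 4 WT libraries, PGR-A KO replicate 3 and WT replicate 1 included (log2 change -0.64, SE 0.090, exact permutation p = 0.0286, the smallest p for 4 against 4). Phlda1 did not pass over all genes, with a limma adjusted p of 0.251.

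Fos, an immediate early transcription factor, also did not overlap between genotypes. It stood at 27.8, 29.8, 25.4 and 27.2 TPM in PGR-A KO and at 112, 101, 32.1 and 31.0 TPM in WT. WT replicates 1 and 2 were far above the rest, while WT replicates 3 and 4 were just above the knockout libraries (log2 change -1.05, SE 0.41, limma adjusted p = 0.783). Egr1, the most abundant of the list, was at 104 ± 19.1 and 131 ± 54.1 TPM (SD, n = 4 each), with its highest level, 201 TPM, in WT replicate 1.

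The cumulus expansion genes Ptgs2, Tnfaip6, Has2 and Ptx3, named after their values were seen, had their 4 highest values in the same libraries as Areg. Ptgs2, which makes prostaglandin precursors, stood at 48.3, 37.0, 13.9 and 33.9 TPM in PGR-A KO and at 43.7, 30.3, 16.3 and 13.3 TPM in WT. PGR-A KO replicate 3 was again lowest among the knockout libraries and WT replicate 1 highest in WT. Of the 66 other pathway genes tested, 22 had their 4 highest values in those libraries, 33.3% against 12.6% of all genes, and 1 (Gab1) had its 4 lowest. The libraries were named for their values, so nothing is drawn from this share.

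Among 8 upstream genes of LH, cAMP and prostaglandin input, 7 had higher means in PGR-A KO (87.5%, against 42.6% of all genes) and 1 lower, with 0 passing and a median log2 change of 0.12. The 7 higher changes ran from 0.0077 to 0.88, and the largest was that of Pgr, which itself encodes PGR-A. Pgr had the lowest p of this list (log2 change 0.88, or 0.37 with a pseudocount of 5, exact permutation p = 0.0286, limma adjusted p = 0.445). Adcyap1, the gene of the cAMP-raising peptide PACAP, was at 13.7, 14.6, 9.12 and 17.5 TPM in PGR-A KO and at 10.03, 8.64, 7.90 and 7.59 TPM in WT (log2 change 0.60, limma adjusted p = 0.721). PGR-A KO replicate 3 was the only knockout library within the WT range of Adcyap1. Lhcgr, the LH receptor gene on which hCG acts, was at 100.3 ± 38.4 and 102 ± 40.6 TPM (SD, n = 4 each), and its lowest value, 46.4 TPM, was in PGR-A KO replicate 3.

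**Figure D5:**
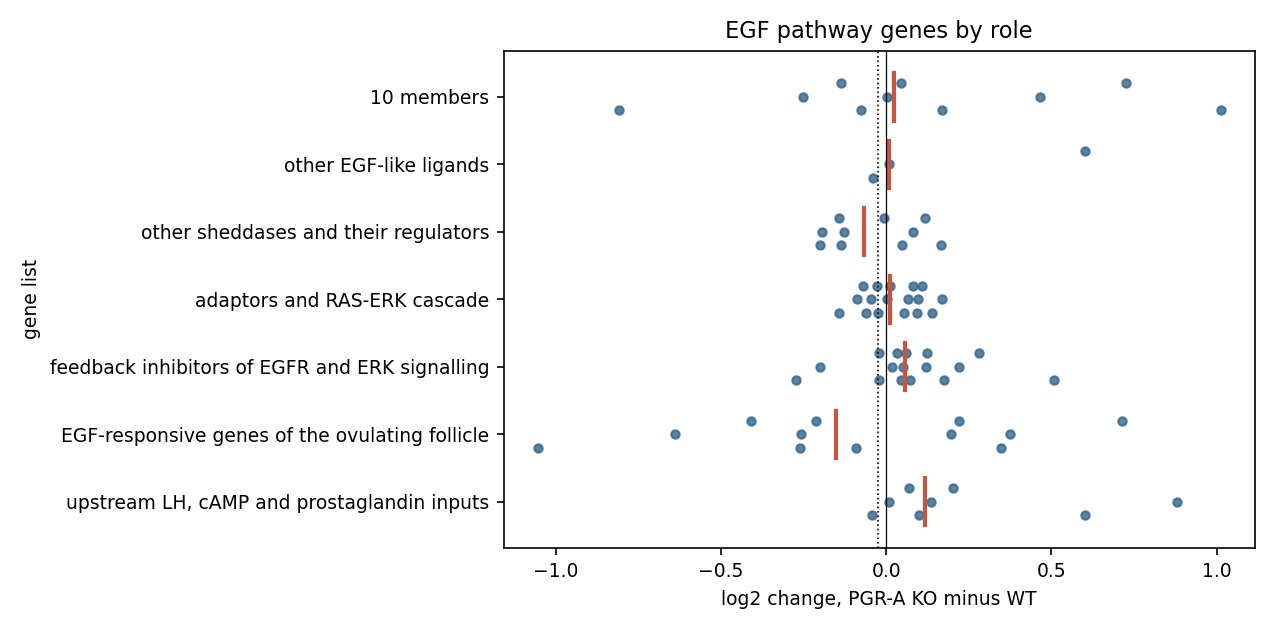
Log2 change (PGR-A KO minus WT) of each gene tested, by role in the pathway, with a red line at each list's median and a dotted line at the median of all genes tested (-0.023). The medians of the lists lie between -0.15 and 0.12, and none of the genes shown passed the test over all genes.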

How the data were processed

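mRNA of granulosa cells was sequenced in 8 libraries, grouped and numbered by their titles. The authors deposited TPM per gene symbol. Salmon, FastQC, edgeR and limma, and mm10 as the build, appear without roles in the submitters' processing notes, and the annotation is not given in the sources used here. TPM sum to 994519 to 997022 per library and keep no depth, so the number of reads behind a value, and its counting error, are unknown.

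Values were fitted as log2(TPM + 1) with limma 3.58.1 (R 4.3.3, intensity trend, no covariate) over the 14472 genes past the filter. Changes are PGR-A KO minus WT, 2-sided, adjusted over all genes by Benjamini-Hochberg, and changes of low genes are understated on this scale. For single genes an exact permutation test (2-sided, 70 assignments) was added, with a smallest p of 0.0286. The steps were also run on simulated data, with noise drawn independently for each gene and library. That setting lacks the order of libraries shared by many genes here, so it does not check the calls made here.

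The members and lists were chosen with earlier results of these data known. Genes named are the 10 members, for each pathway list the most abundant gene and the 2 with the lowest p, any past the threshold, and 3 genes nearest in pattern to Areg, Ereg and Btc. Others are said to be outside that rule, and some genes it names are not reported here. The alternatives were a pseudocount of 0.1 or 5, no filter or a minimum of 5 TPM, TMM factors or quantile normalization, no trend, robust empirical Bayes, a replicate block and each library left out. Array weights and a fit of 6 libraries were added after the data were seen.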

Additional observations from a re-analysis of the deposited data

Results flagged for a closer look

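Of 50 groups of 4 libraries, for 25 named genes, 4 held a library far from the other 3 of its group, where chance gives about 2.5. Btc was at 44.2 TPM in WT replicate 1, against 20.2 to 21.3 TPM in the other WT libraries. Adam17 was at 68.7 TPM in WT replicate 3, against 63.3 to 64.1 TPM. In PGR-A KO replicate 3, Cblb was at 17.0 TPM, against 28.8 to 31.0 TPM in the other knockout libraries, and Egr1 at 75.5 TPM, against 112 to 116 TPM.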

How the results depend on the processing

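No member passed in any setting other than the fit of 6 libraries, and 175 of 188 member values kept their direction and side of the threshold. Over all genes, the count past the threshold was 2 as reported, 16 with array weights, 1131 with 6 libraries, 1 with a pseudocount of 5, and 0 (without WT replicate 2) to 6 (without PGR-A KO replicate 3) with a library left out. Unadjusted, 913 genes had a p under 0.05, and this count was 3591 with array weights, 1706 without the filter, 3543 with 6 libraries, and 505 to 1832 with a library left out. For members at that p, 2 became 1 without the filter, 5 with array weights, 4 with 6 libraries, and 1 to 4 with a library left out. With TMM factors and with quantile normalization the count stayed at 2, but Erbb2 took the place of Hbegf beside Btc. The unadjusted limma p was then 0.0514 and 0.0516 for Hbegf, and 0.0370 and 0.0311 for Erbb2. With 6 libraries 4 members and 15 other pathway genes passed, among them Areg (0.91), Ereg (1.29), Btc (1.57), Hbegf (-1.20), Epgn (1.05), Cblb (0.83), Adcyap1 (0.84), Pgr (1.10) and Phlda1 (-0.68), log2 changes. With array weights 2 other pathway genes passed, Pgr (1.02) and Phlda1 (-0.62). The cause was not tested.

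Signs turned in 30 of 470 single-gene values. With array weights Nrg1 was at -0.080, Egr1 at 0.13, Errfi1 at 0.26 and Lhcgr at 0.44. With 6 libraries Nrg1 was at -0.058, Egfr at 0.012, Egr1 at 0.12, Errfi1 at 0.25 and Lhcgr at 0.38. Adam10 was at 0.023 with TMM factors and 0.012 with quantile normalization, and Nrg4 at 0.024 with quantile normalization. When single libraries were left out, values ran from -0.024 to 0.046 for Tgfa, -0.038 to 0.14 for Nrg1, -0.038 to 0.029 for Adam10, -0.36 to 0.040 for Errfi1, -0.24 to 0.29 for Lhcgr and -0.16 to 0.036 for Nrg4.

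The replicate block left 2 genes and 0 members past the threshold. Unadjusted, the counts under 0.05 rose with the block from 913 to 1368 genes and from 2 to 3 members, Ereg joining Btc and Hbegf. Libraries with the same number shared only that number, with correlations of their deviations of 0.36, -0.11, 0.39 and -0.29. For number 1 each library had its best partner in the library of its own number. For number 3 only the WT library did, and for numbers 2 and 4 neither did. With correlations of both signs, numbers were not taken to pair the libraries. Low genes such as Erbb3 and Nrg1 lie close to the pseudocount, which shrinks their changes.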

Other observations

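Of the other EGF-like ligand genes, Nrg4, which encodes a ligand of ERBB4, stood at 3.65 to 5.95 TPM in PGR-A KO and at 3.31 to 5.49 TPM in WT. Egf was close to the filter, at 0.977 to 1.34 TPM in PGR-A KO and 0.857 to 1.62 TPM in WT. The Egfr to Erbb2 ratio was 1.62 ± 0.253 in PGR-A KO and 2.24 ± 0.639 in WT (SD, n = 4 each), highest at 3.07 in WT replicate 1. Timp3, which inhibits ADAM17, was at 22.2 ± 3.62 and 19.6 ± 2.81 TPM (SD, n = 4 each). These were named after their values were seen and were not tested further.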
